A study of Mus musculus with 12 samples.

Results

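The guanylate-binding proteins examined here are Gbp2, Gbp3, Gbp4, Gbp5, Gbp6, Gbp7, Gbp8 and Gbp9. They were taken by gene symbol from the raw count tables of unstimulated and LPS-stimulated cells, and all 8 were present among the 17544 genes of the first table and the 17874 genes of the second. The cells were J774A.1, a mouse macrophage line, as wild type (WT) or with the mitochondrial enzyme ACAT1 knocked out (ACAT1-/-). Each genotype was sequenced without treatment and after 2 h with LPS at 100 ng/ml, a bacterial outer-membrane product sensed by Toll-like receptor 4, with 3 libraries in each of the 4 groups. According to the study's methods both genotypes went through transfection with a Cas9-GFP vector, sorting and outgrowth from a few cells per well. The vector held no guide in WT and a guide to the fourth exon of Acat1 in the knockout. The methods call the populations of both genotypes single-cell clonal. The study describes its replicates as different lines of a genotype, although a supplementary legend for the same data names mice. With lines as replicates, the p-values measure the spread between such lines of 1 parental cell line. The question put to the members was how far LPS moved each of them and whether the loss of ACAT1 shifted their resting or stimulated levels.

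Guanylate-binding proteins are large GTPases of the dynamin superfamily and are among the most strongly induced products of interferon-stimulated macrophages. Interferons act on them through signal transducers of the JAK-STAT pathway and interferon regulatory factors, while LPS reaches them through Toll-like receptor 4, partly by way of secreted interferon-beta. The proteins gather on the membranes of pathogen-containing vacuoles and on the surface of cytosolic Gram-negative bacteria, where they can bind LPS and assist its detection by caspase-11, the product of Casp4. GBP2 and GBP5 carry a C-terminal motif for prenylation, which anchors them to membranes, and GBP5 has also been linked to activation of the NLRP3 inflammasome. Less is known of the separate roles of GBP4, GBP6, GBP8 and GBP9.

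In the GENCODE annotation of GRCm38 the members lie in 2 gene clusters, 4 in each. The cluster on chromosome 3, from 142493978 to 142638008, holds Gbp5, Gbp7, Gbp3 and Gbp2 on the plus strand, together with Gbp2b. The cluster on chromosome 5, from 105014150 to 105346472, holds Gbp8, Gbp9, Gbp4 and Gbp6 on the minus strand, together with Gbp10 and Gbp11. Gbp2b, Gbp10 and Gbp11 belong to the same family but not to the 8 members, and their values are given for comparison. Promoter windows from RefSeq (GRCm38.p6), each running from 250 bases before to 50 bases after a gene start, were matched by symbol for 4 of the 8 members, namely those on chromosome 3. Gbp4, Gbp6, Gbp8 and Gbp9 had no entry. The windows were searched on both strands for the core of the interferon-stimulated response element, GAAANNGAAA, which occurred in 3.44% of all 32851 windows. It was found in the windows of Gbp5, Gbp7, Gbp3 and Gbp2, and in that of Gbp2b, each time on the strand opposite to the gene. The 250 bases before the start are shown for the 4 members, plus strand, because these genes rose together after LPS, and capitals mark the response-element core:
Gbp5 (chr3:142496684-142496933): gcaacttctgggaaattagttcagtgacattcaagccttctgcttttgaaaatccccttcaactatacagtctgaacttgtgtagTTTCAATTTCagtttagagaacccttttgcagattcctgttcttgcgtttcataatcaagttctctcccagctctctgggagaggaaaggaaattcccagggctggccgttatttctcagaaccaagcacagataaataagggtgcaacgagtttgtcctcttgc
Gbp7 (chr3:142530086-142530335): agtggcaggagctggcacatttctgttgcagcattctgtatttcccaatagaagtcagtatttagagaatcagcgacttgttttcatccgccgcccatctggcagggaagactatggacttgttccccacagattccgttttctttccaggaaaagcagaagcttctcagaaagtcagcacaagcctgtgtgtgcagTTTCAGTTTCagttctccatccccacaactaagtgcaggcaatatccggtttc
Gbp3 (chr3:142559794-142560043): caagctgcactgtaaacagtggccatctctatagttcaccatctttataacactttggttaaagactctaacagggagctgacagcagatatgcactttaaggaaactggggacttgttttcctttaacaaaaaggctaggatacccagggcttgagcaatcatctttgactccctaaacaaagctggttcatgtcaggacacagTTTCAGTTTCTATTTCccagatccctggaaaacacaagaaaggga
Gbp2 (chr3:142620413-142620662): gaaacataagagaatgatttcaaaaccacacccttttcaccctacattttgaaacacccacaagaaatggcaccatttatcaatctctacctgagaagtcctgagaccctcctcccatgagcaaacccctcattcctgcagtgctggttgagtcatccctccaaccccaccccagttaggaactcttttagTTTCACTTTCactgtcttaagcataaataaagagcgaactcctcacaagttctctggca
The marked core begins 165 bases before the start in Gbp5, 53 bases in Gbp7 and 59 bases in Gbp2. These starts are those of RefSeq, and the Gbp5 window lies wholly within the GENCODE gene, which begins at 142493978. In Gbp3 a pair of overlapping cores begins 45 and 39 bases before the start, and a further window for another start of Gbp3 held none. The core of the STAT-binding GAS element, TTCNNNGAA, was found in 8.3% of all windows and at 2 positions each in the windows of Gbp5 and Gbp7. The NF-kB core GGGNNNNNCC was found in those of Gbp5, Gbp3 and Gbp2, but 50.8% of all windows hold it. These matches describe letters in the windows and are no measure of binding in these cells.

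Totals ranged from 56948593 to 167280149 counts per library. Levels are given as normalized counts on the CPM scale after TMM normalization of the 12 libraries together, while fold changes between genotypes come from a separate fit for each state. Acat1 was between 80.8 and 108 CPM in unstimulated WT libraries and between 25.5 and 28.9 CPM in unstimulated ACAT1-/- libraries, and after LPS between 65.0 and 95.4 CPM in WT and between 18.5 and 19.9 CPM in ACAT1-/- libraries. All 10 macrophage markers were counted in every group, with a summed level of 9589 to 12216 CPM, of which Lyz2 alone had group means of 5144 to 6881 CPM. Among these markers Adgre1 and Fcgr1 were lower in unstimulated ACAT1-/- cells (log2 fold change -0.78, edgeR adjusted p = 0.0368, and -0.69, 0.0124), and after LPS Fcgr1 was lower (-1.07, 0.00312) and Cd14, Itgam and Spi1 were higher (0.40, 0.48 and 0.26). Epithelial and NK cell markers were not listed in either table, nor were Cd3d, Cd3e, Cd8a or Ms4a1, and the listed markers of other cell types summed to at most 13.1 CPM, for fibroblasts in ACAT1-/- cells after LPS. That sum was mostly Pdgfra, with 6.06 ± 0.483 CPM in WT and 11.9 ± 0.913 CPM in ACAT1-/- cells after LPS (SD, n = 3; edgeR adjusted p = 0.00247). Of the collagen genes, Col1a1 was listed for LPS-stimulated cells only and Col1a2 in neither state. The part of these shifts in the differences of the members between genotypes was not tested. In such bulk RNA fewer cells of a type and less RNA per cell cannot be told apart. Unstimulated WT replicates 1 and 2 and ACAT1-/- replicate 2 had 0.0154% to 0.0241% of their counts on noncoding genes antisense to annotated exons, and the remaining libraries had no more than 0.00437%.

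Some members have stretches of transcript in common with other genes, through likeness or through overlapping exons, so that reads can fit both. Of the 100-base stretches of annotated transcript, the length of the reads, 64.5% of those of Gbp6 also occur in another transcript, mainly of Gm43302 and Gbp10, and 10.0% of those of Gbp7, mainly in the pseudogene Gm43802. For the other 6 members the share was at most 4.39%. Values of Gbp6 are therefore uncertain as to their gene of origin. All 6 annotated transcripts of Gbp4 begin at a first exon at chr5:105139480-105139540 or slightly beyond its end, and 1 of 4 transcripts each of Gbp8 and Gbp9 begins there too, so counts per gene cannot show which start was used.

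In unstimulated WT cells the transcripts spanned a wide range of levels. Compared per kb of annotated exon, Gbp8 was at 7.63 ± 0.927 CPM per kb (SD, n = 3) and Gbp3 at 6.52 ± 0.987, followed by Gbp2 at 3.70 ± 0.118, Gbp9 at 2.76 ± 0.404 and Gbp7 at 2.12 ± 0.291. Gbp4 was at 0.388 ± 0.129, Gbp6 at 0.0333 ± 0.0148 and Gbp5 at 0.0134 ± 0.0123 CPM per kb. Gbp8 stood above Gbp3 and Gbp9 above Gbp7 in each of the 3 libraries, although the ranges of the genes in each pair overlapped. Together the 8 members had 86.2 ± 7.34 CPM (SD, n = 3) in WT and 66.7 ± 4.56 CPM in ACAT1-/- cells without LPS.

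**Figure D1:**
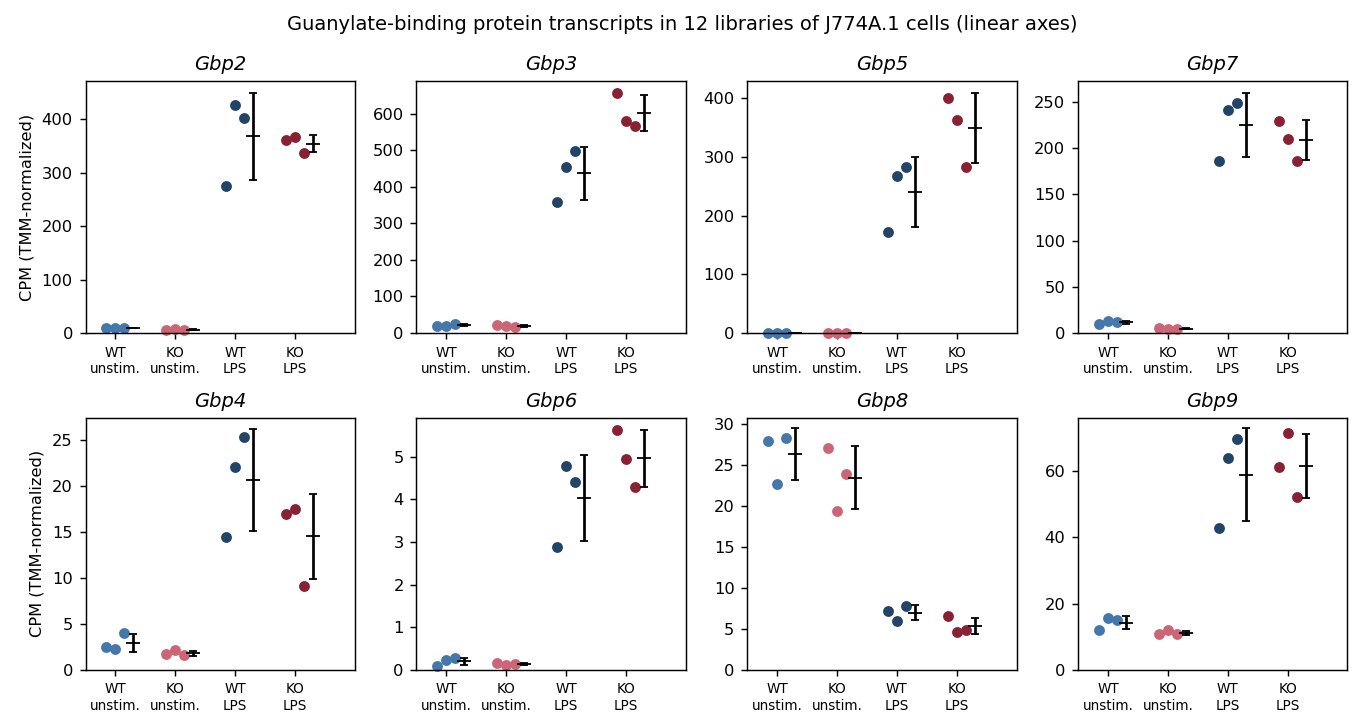
Levels of the 8 members in the 12 libraries, 1 panel each, as TMM-normalized CPM on linear axes that start at 0 and differ between panels. KO marks ACAT1-/- cells. Points are libraries in order of replicate number, and the bar beside each group is its mean with SD (n = 3). Of the members, 7 stand higher after LPS in both genotypes, while Gbp8 stands lower.

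LPS moved all 8 members in both genotypes, 7 upward and Gbp8 downward. Beside these counts, 29.3% of the 16535 genes tested were higher and 28% were lower in WT cells after LPS, and 29.5% and 31.2% in ACAT1-/- cells, at a Benjamini-Hochberg adjusted p under 0.05 (edgeR quasi-likelihood F test, used throughout unless another tool is named). The median log2 fold change of the members was 4.28 in WT and 5.08 in ACAT1-/- cells, against -0.018 and -0.026 for all genes. For every member the 3 LPS libraries lay wholly above or wholly below the 3 unstimulated libraries of the same genotype. The share of all genes for which this held was not counted.

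Gbp5, whose product promotes NLRP3 inflammasome assembly, passed from near silence to one of the more abundant members. Its 3 unstimulated WT libraries had 3, 12 and 5 counts, and the LPS libraries 14632, 26308 and 42787 counts. In ACAT1-/- cells it had 14, 5 and 5 counts without stimulation and 34444, 40512 and 29776 counts after LPS. Its levels after LPS were 171, 267 and 283 CPM in WT and 401, 362 and 283 CPM in ACAT1-/- libraries. Summed over libraries, Gbp5 was 3245-fold higher after LPS in WT (95% interval 2101 to 5312) and 5062-fold higher in ACAT1-/- cells (3402 to 7900), where the exact Poisson interval covers only counting error in the unstimulated cells. Of the 20 unstimulated WT counts 12 came from replicate 2, without which the fitted log2 fold change in WT was 12.47. Its fitted log2 fold changes, 11.57 in WT and 12.30 in ACAT1-/- cells, ranked first of the 16535 genes of both tables in each genotype, although genes listed in the LPS table alone had no such value.

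Gbp2, a prenylated member that gathers on bacterial and parasite vacuoles, was at 9.07, 9.24 and 9.65 CPM in unstimulated WT libraries and at 275, 426 and 403 CPM after LPS. In ACAT1-/- cells it was at 5.83, 6.74 and 6.20 CPM and then at 360, 367 and 336 CPM. The rise was 39.5-fold in WT (95% interval 31.1 to 50.02; adjusted p = 3.29e-10, edgeR) and 56.7-fold in ACAT1-/- cells (44.5 to 72.3; adjusted p = 1.53e-10). Replicate 1 was the lowest of the WT libraries after LPS.

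Gbp3, its neighbour on chromosome 3, had the highest CPM of the 8 after LPS. Unstimulated levels were 19.2, 19.7 and 25.0 CPM in WT and 21.3, 18.5 and 17.6 CPM in ACAT1-/- libraries. After LPS they were 358, 453 and 499 CPM in WT and 657, 579 and 567 CPM in ACAT1-/- libraries. The log2 fold changes were 4.35 (standard error, SE, 0.153) in WT and 4.97 (SE 0.157) in ACAT1-/- cells.

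Gbp7, which has been linked to the delivery of NADPH oxidase and autophagy components to bacterial vacuoles, was at 10.2, 13.4 and 12.2 CPM in WT and at 5.22, 4.89 and 4.15 CPM in ACAT1-/- libraries before stimulation. After LPS it was at 186, 241 and 249 CPM in WT and at 229, 210 and 186 CPM in ACAT1-/- libraries. The genotypes were thus apart without LPS and overlapped after it. Gbp7 rose 18.9-fold in WT (95% interval 15.1 to 23.8) and 43.8-fold in ACAT1-/- cells (34.4 to 55.9).

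On chromosome 5 the rises were smaller or started from few counts. Gbp9 went from 11.9, 15.7 and 15.2 CPM to 42.9, 64.0 and 69.7 CPM in WT, a log2 fold change of 2.05 (SE 0.179). In ACAT1-/- libraries Gbp9 went from 10.7, 11.95 and 10.7 CPM to 61.2, 71.5 and 52.1 CPM, 2.47 on the same scale (SE 0.182). Gbp4 went from 2.50, 2.21 and 4.01 CPM to 14.5, 22.0 and 25.3 CPM in WT, a log2 fold change of 2.81 (SE 0.306). In ACAT1-/- libraries it went from 1.68, 2.12 and 1.60 CPM to 16.9, 17.4 and 9.12 CPM, 3.01 on the same scale (SE 0.310). Gbp6, with 7 to 33 counts per unstimulated library, rose to 2.88, 4.78 and 4.42 CPM in WT and 5.64, 4.94 and 4.30 CPM in ACAT1-/- libraries, with log2 fold changes of 4.31 and 5.19.

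Gbp8 went the other way. It was at 27.9, 22.6 and 28.3 CPM in unstimulated WT and 27.0, 19.4 and 23.9 CPM in unstimulated ACAT1-/- libraries. After LPS it was at 7.15, 5.99 and 7.78 CPM in WT and 6.50, 4.65 and 4.89 CPM in ACAT1-/- libraries. On the log2 scale it fell by 1.91 (SE 0.162, edgeR adjusted p = 9.37e-07) in WT and fell by 2.13 (SE 0.164, adjusted p = 3.59e-07) in ACAT1-/- cells. Counted from the lowest fold change of 16535 genes, Gbp8 took place 527 in WT and 443 in ACAT1-/- cells. Of the related genes outside the 8 members, Gbp2b rose 57.6-fold in WT and 85.6-fold in ACAT1-/- cells, Gbp10 13.1-fold and 22.2-fold, and Gbp11 3.92-fold and 3.86-fold, so Gbp8 was the single annotated family member in these tables that fell.

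**Figure D2:**
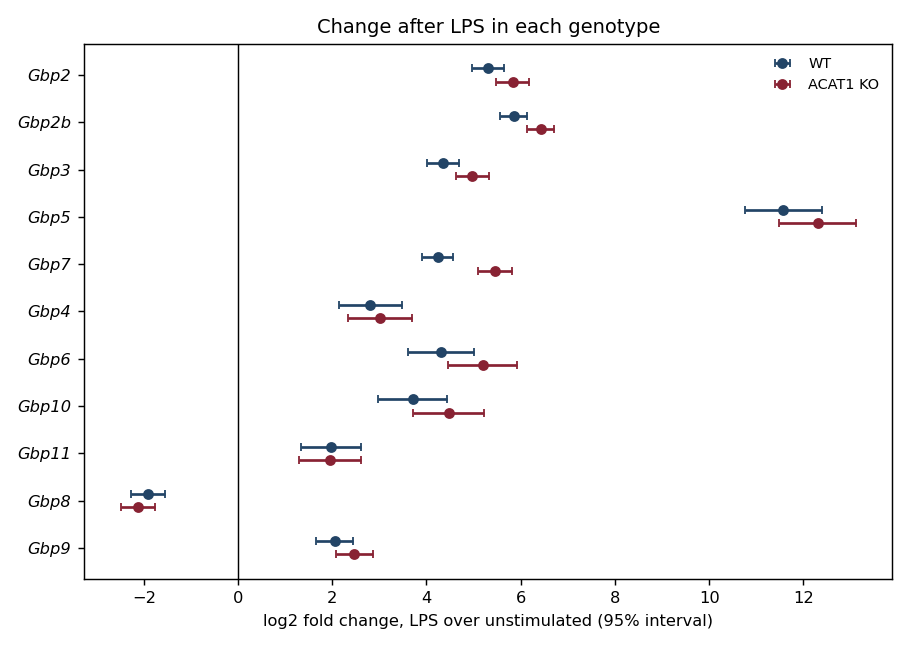
Fitted log2 fold change after LPS for the 8 members and for Gbp2b, Gbp10 and Gbp11, in WT (blue) and ACAT1-/- cells (red), with 95% intervals from the fit of all 12 libraries. Gbp5 lies beyond 11 and Gbp8 near -2 in both genotypes, and the intervals of WT and ACAT1-/- do not overlap for Gbp7.

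These changes left a different mixture of transcripts. Gbp8 made up 32.9% ± 3.55 (SD, n = 3) of the summed CPM per kb of the 8 members in unstimulated WT cells and 0.559% ± 0.145 after LPS. In ACAT1-/- cells its share went from 36.8% ± 3.93 to 0.359% ± 0.0485. Gbp2 and Gbp3 together led after LPS, with 39.1% ± 2.02 and 36.0% ± 1.91 in WT and 32.8% ± 1.57 and 42.7% ± 1.59 in ACAT1-/- cells. The Gbp3 share was above the Gbp2 share in all 3 ACAT1-/- libraries after LPS, by 7.27 to 12.6 percentage points, whereas in WT libraries the gap ran from 0.0510 points above it to 7.44 points below it. Gbp5 contributed 0.0594% ± 0.0570 before and 9.62% ± 0.655 after LPS in WT, and 12.1% ± 1.20 after LPS in ACAT1-/- cells. The summed level of the 8 members after LPS was 1361 ± 264 CPM in WT and 1599 ± 148 CPM in ACAT1-/- cells, with overlapping libraries.

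**Figure D3:**
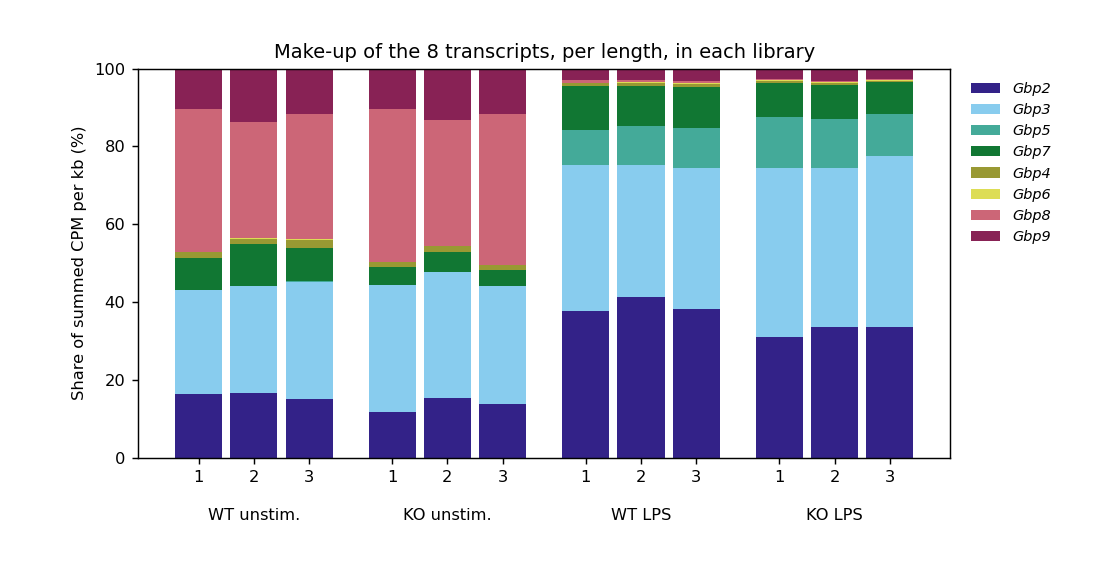
Share of each member in the summed CPM per kb of the 8 members, in percent, for each library (replicates 1 to 3 of each group). Gbp8 and Gbp3 take the largest shares without LPS. Gbp8 is hardly visible after it, when Gbp2, Gbp3, Gbp5 and Gbp7 fill most of each bar.

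Genes that act before or beside the guanylate-binding proteins were counted after LPS in the same way. Of all 16535 genes tested, 29.3% were higher and 28% lower in WT, and 29.5% and 31.2% in ACAT1-/- cells. The counts of the lists were not tested against these shares. Of 23 genes for interferon and Toll-like receptor 4 input, 21 were tested, of which 15 were higher and 3 lower after LPS in WT, and 14 higher and 4 lower in ACAT1-/- cells. Among them the NF-kB subunit gene Nfkb1 had a log2 fold change of 2.25 in WT and 2.32 in ACAT1-/- cells, the kinase gene Jak2 of 3.44 and 3.41, and the feedback inhibitor gene Socs1 of 5.67 and 5.30. Of 13 regulators of where the proteins are placed in the cell, 7 were higher and 3 lower in WT, and 5 higher and 3 lower in ACAT1-/- cells, led by the IRGM genes Irgm1 (4.03 in WT and 4.67 in ACAT1-/-), Igtp (3.59 and 4.01) and Irgm2 (4.88 and 5.52). All 4 tested effector immunity-related GTPases of 5 were higher in both genotypes, with Iigp1 at 5.77 and 6.56. Of 12 partner and inflammasome genes, 9 were higher and 1 was lower in each genotype, including Casp4 at 2.77 and 2.82 and Nlrp3 at 2.31 and 2.48. The 6 prenylation enzymes had 3 higher in each genotype, and 1 lower in ACAT1-/- cells, with Pggt1b at 0.53 and 0.51. Among 11 other large GTPases 8 were higher in WT and 7 in ACAT1-/- cells, and 2 and 3 were lower, with Mx1 at 5.52 and 6.86 and Mx2 at 4.60 and 5.92.

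Genes beside the clusters were also examined. Within 500 kb of the chromosome 3 cluster 5 genes were tested, of which 3 were higher after LPS in both genotypes, with a median log2 fold change of 0.97 in WT. The nearest, Kyat3, 63.0 kb away, had a log2 fold change of -0.07, whereas Pdlim5 at 98.3 kb had 2.22, Gtf2b at 127 kb had 0.97 and Pkn2 at 153 kb had 1.12 in WT cells. Around the chromosome 5 cluster 9 genes were tested, with a median of 0.05 in WT, and 3 were higher and 1 lower there. Of all 16535 genes tested, 29.3% were higher and 28% lower in WT.

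Without stimulation the members were at lower values in ACAT1-/- than in WT cells, but 1 of the 7 tested, Gbp7, passed the adjusted threshold, where 1.17% of 16440 genes were lower. Gbp7 averaged 11.9 ± 1.64 CPM over the 3 WT libraries (SD) and 4.75 ± 0.546 CPM over the 3 ACAT1-/- libraries, with no overlap between libraries. Its log2 fold change was -1.32 (SE 0.148, edgeR adjusted p = 0.0206), or 0.402 of the WT level with a 95% interval of 0.315 to 0.512. At an unadjusted p under 0.05, 4 members were lower, Gbp7, Gbp2, Gbp9 and Gbp4, where 9.93% of genes were lower at that threshold. The ACAT1-/- libraries lay below all WT libraries for 3 of them, Gbp7, Gbp2 and Gbp4, as did those of 13.2% of genes. Values below 0 were fitted for all 7 tested members, with a median of -0.57 against 0.0035 for all genes.

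Gbp2 came next at -0.57 on the log2 scale (SE 0.107, edgeR adjusted p = 0.0547), and passed the threshold with DESeq2 (adjusted p = 2.35e-05), limma-voom (0.0456), a fit of all 12 libraries (0.0274), a minimum of 10 counts in every library (0.0431) or a term for antisense counts (0.033). Gbp4 had -0.68 (95% interval -1.32 to -0.05), Gbp9 -0.35 (-0.65 to -0.05) and Gbp6 -0.57 (-1.52 to 0.37). Gbp3 and Gbp8 had -0.15 (-0.45 to 0.15) and -0.16 (-0.49 to 0.17), so differences of the size seen for Gbp7 lie outside their intervals. Gbp5, with 3 to 14 counts per library, was removed by the filter on low counts. Where it was kept, its log2 difference was -0.27 with no filter (adjusted p = 0.884, edgeR) and -0.18 in the fit of all 12 libraries (0.924). Outside the 8 members Gbp2b was lower in ACAT1-/- cells, at -0.61 on the log2 scale (SE 0.109, adjusted p = 0.0477).

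Among the libraries with more antisense counts, 2 WT and 1 ACAT1-/-, the Gbp7 difference was -1.27 on the log2 scale, and among the other 3, 1 WT and 2 ACAT1-/-, it was -1.38, values that have no replicate check in the arm of 1 library. For Gbp4 the same values were -0.15 and -1.29, and for Gbp2 -0.44 and -0.68. Leaving out a single library kept the Gbp7 log2 fold change between -1.43 and -1.22. Its adjusted p was 0.0298 without WT replicate 3 but 0.0547 without WT replicate 1, 0.0907 without WT replicate 2, and 0.0689, 0.0576 and 0.0902 without ACAT1-/- replicates 1, 2 and 3.

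**Figure D4:**
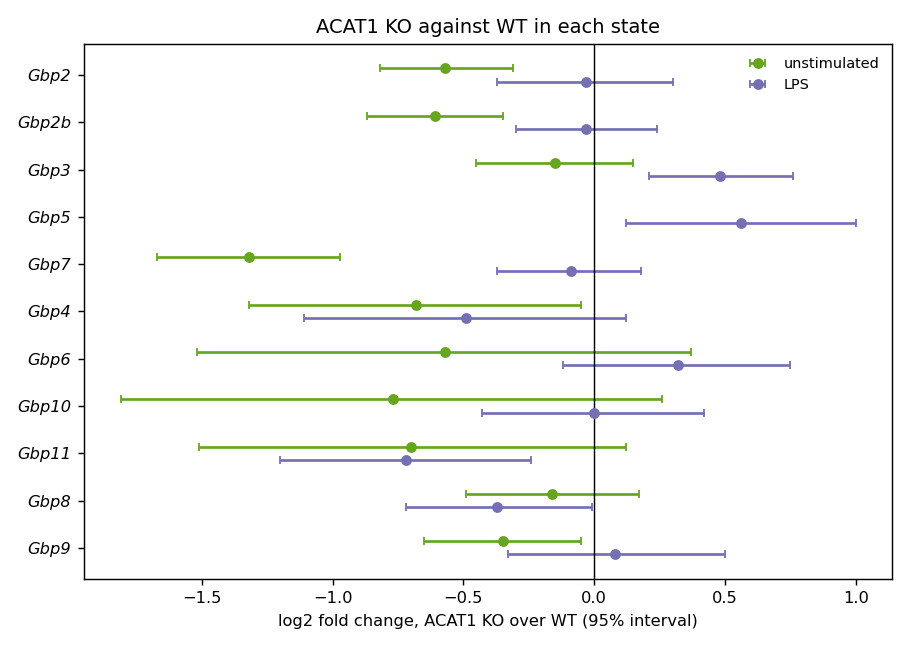
Fitted log2 fold change of ACAT1-/- against WT with 95% intervals, without stimulation (green) and after LPS (purple), for the 8 members and 3 related genes. Gbp5 has no unstimulated value. The Gbp7 interval runs from -1.67 to -0.97 without LPS and spans 0 after it, and the Gbp3 interval lies above 0 after LPS.

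Among the other lists in unstimulated cells, few genes passed. Over all 16440 genes tested, 122 were higher and 192 lower in ACAT1-/- cells at the adjusted threshold. Of 21 tested input genes 1 was higher in ACAT1-/- cells, the transcription factor gene Irf8 with a log2 fold change of 0.55 (adjusted p = 0.0175, edgeR), and 2 were lower, Usp18 with -1.76 (0.0215) and Stat2 with -1.15 (0.0344). Of 13 placement regulators Igtp was lower, with -0.50 (adjusted p = 0.0405), and Irgm1 and Irgm2 had -0.64 (0.0638) and -0.82 (0.0678). Of 12 partner genes the NADPH oxidase subunit gene Cybb was higher, with 0.75 (adjusted p = 0.0464). Mx2 was lower among 10 tested large GTPases, with -1.33 (adjusted p = 0.0465). By edgeR 0 of 4 effector immunity-related GTPases and 0 of 6 prenylation enzymes passed, with 1 lower and 0 at an unadjusted p under 0.05.

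After LPS the members no longer leaned to lower values in ACAT1-/- cells, with 4 fitted above 0 and 4 below and a median of 0.03. Gbp3 alone passed the adjusted threshold, on the higher side, where 5.93% of 16483 genes were higher. It averaged 437 ± 71.9 CPM over the 3 WT libraries (SD) and 601 ± 49.1 CPM over the 3 ACAT1-/- libraries, 1.40-fold higher (95% interval 1.15 to 1.69; log2 fold change 0.48, SE 0.120, edgeR adjusted p = 0.0335). For Gbp5 the log2 fold change was 0.56 (SE 0.191), with an adjusted p of 0.0875 in edgeR and 0.0134 in DESeq2. For both, all ACAT1-/- libraries lay above all WT libraries, as for 15.8% of genes, although for Gbp5 the nearest libraries were 283.5 and 282.7 CPM. At an unadjusted p under 0.05 Gbp3 and Gbp5 were higher, where 14.1% of genes were, and Gbp8 was lower, where 17.2% were, with a log2 fold change of -0.37 (95% interval -0.72 to -0.01).

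Gbp2 and Gbp7 had log2 fold changes of -0.03 (95% interval -0.37 to 0.30) and -0.09 (-0.37 to 0.18) after LPS, and Gbp9 had 0.08 (-0.33 to 0.50). Gbp4 had -0.49 (-1.11 to 0.12) and Gbp6 0.32 (-0.12 to 0.75). The interval of Gbp7 after LPS thus leaves out its unstimulated value of -1.32. The Gbp3 difference stayed between 0.36 and 0.60 on the log2 scale with any 1 library left out, lowest without WT replicate 1. Its adjusted p was 0.0306 and 0.0213 without WT replicates 1 and 3, but 0.0797 without WT replicate 2, and 0.104, 0.0822 and 0.0689 without ACAT1-/- replicates 1, 2 and 3.

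Over all 16483 genes tested after LPS, 977 were higher and 1504 lower in ACAT1-/- cells at the adjusted threshold. In the other lists 1 of 22 tested input genes was higher and 3 were lower. Ifnb1, the gene for interferon-beta, was higher by 1.27 on the log2 scale (SE 0.309, edgeR adjusted p = 0.0312). It was at 39.0 ± 15.2 CPM in WT and 93.1 ± 29.9 CPM in ACAT1-/- cells (SD, n = 3). The paper reported less interferon-beta secreted by ACAT1-/- cells after LPS, but as protein and after a longer stimulation. Irf8 was lower with -0.65 (edgeR adjusted p = 0.0129), Ifnar1 with -0.28 (0.0197) and Tlr4 with -0.26 (0.0477). Of 12 partner genes 3 were higher and 2 lower, among them Cybb with 0.87 (adjusted p = 0.00581), Il1b with 1.46 (0.0130) and Il18 with -0.63 (0.0181). The prenylation enzyme genes Fntb and Icmt were lower, with -0.40 (adjusted p = 0.0190) and -0.21 (0.0381). Map1lc3a, for an LC3 protein, was the 1 placement regulator of 13 that was higher, with 0.70 (adjusted p = 0.0109). By edgeR 0 of 5 effector immunity-related GTPases and 0 of 11 other large GTPases passed, with 1 lower in each list at an unadjusted p under 0.05.

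The LPS response itself was compared between genotypes by the interaction term of the 12-library fit. Gbp7 was the 1 member of 8 to pass, where 0.0484% of 16535 genes passed in that direction. Its log2 fold change after LPS was 1.21 larger in ACAT1-/- than in WT cells (95% interval 0.79 to 1.63, SE 0.193, edgeR adjusted p = 0.0383), which is 2.32-fold. Both genotypes reached overlapping levels after LPS, and the unstimulated levels were those that differed. At an unadjusted p under 0.05 the term was above 0 for 3 members, Gbp7, Gbp3 with 0.62 (95% interval 0.20 to 1.03, adjusted p = 0.270) and Gbp2 with 0.52 (0.11 to 0.94, adjusted p = 0.377), where 3.28% of genes were. The values of the other members were 0.88 for Gbp6, 0.72 for Gbp5, 0.43 for Gbp9, 0.20 for Gbp4 and -0.22 for Gbp8, with intervals that include 0.

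With limma-voom the Gbp7 interaction had an adjusted p of 0.0678. Leaving out 1 library kept it between 1.09 and 1.35 on the log2 scale, with an adjusted p of 0.0432 without WT LPS replicate 3 and 0.0357 without unstimulated WT replicate 1, and of 0.0503 to 0.103 without each of the other 10 libraries. In the 6 gene lists other than cell markers, Irf8 was the 1 gene that passed, with a log2 interaction of -1.22 (adjusted p = 0.0195, edgeR), and Usp18 had 1.53 (adjusted p = 0.0533). Of the cell markers, Adgre1 had 0.83 (adjusted p = 0.0423) and Pdgfra 1.22 (0.0383).

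Deviations from the group mean were shared by many of the members, less so by Gbp8. WT LPS replicate 1 was the lowest WT LPS library for 7 of the 8 members and ACAT1-/- LPS replicate 3 the lowest of its group for 7, and in both Gbp8 was the exception. The median deviation of the members from their group mean was -0.41 on the log2 scale in the first and -0.18 in the second. Over the 12 libraries, after the 4 group means were removed, Pearson's r between pairs of members had a median of 0.62 over the 21 pairs without Gbp8 and of 0.01 over its 7 pairs, which ranged from -0.25 to 0.44. The pairs without Gbp8 ranged from -0.02 to 0.83, with the lowest values for Gbp5 with Gbp4 (-0.02), Gbp3 (0.22) and Gbp2 (0.23). Gbp5 had 0.77 with Gbp7 and 0.50 with Gbp6 and with Gbp9. Its unstimulated libraries, with 3 to 14 counts each, enter all of these values. These coefficients are descriptions of 12 libraries that share normalization and, for the lowest genes, few counts. The share of all genes lowest in the same libraries, and r between pairs of other genes, are not given here.

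**Figure D5:**
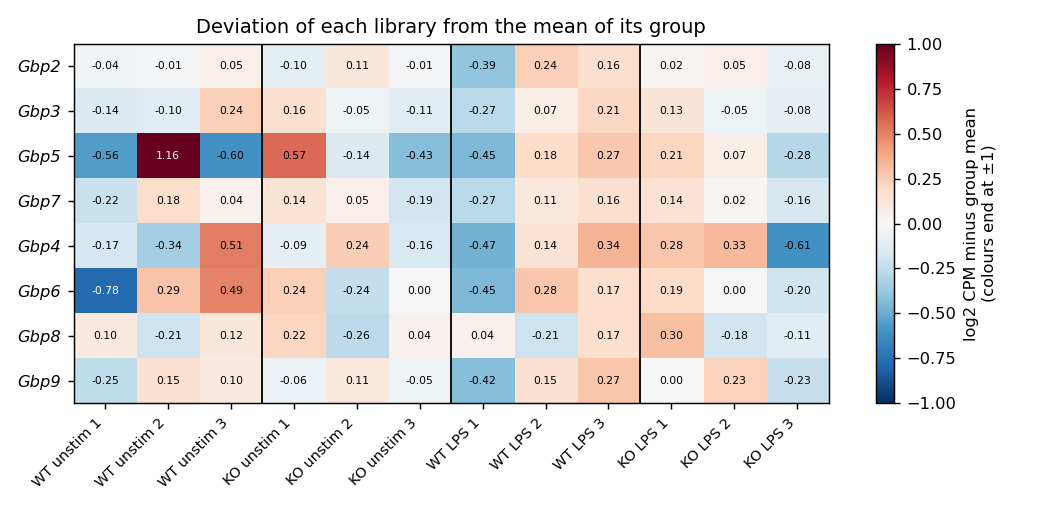
Log2 CPM of each member in each library minus the mean of its group, with the value printed in each cell and colours from -1 to 1. WT LPS 1 is below its group mean for all members but Gbp8, and ACAT1-/- LPS 3 (labelled KO) is below it for all 8.

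The genes outside the family whose levels over the 12 libraries were most like the mean standardized profile of the members, by Pearson's r of log2 CPM among 16518 genes, were Irf1, Ifit3, Igtp, Trafd1 and Irgm2, each with r of 0.998. That measure includes the step between unstimulated and LPS libraries, which many genes share. With the group means removed, the most similar were Mndal (r = 0.979), Rasa4 (0.977), Slc25a22 (0.963), Ctsc (0.961) and Zup1 (0.957) over the same 12 libraries. In both measures the named genes are the highest of 16518 values over few libraries, a description that was not tested.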

How the data were processed

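RNA-seq counts of 12 libraries were used, with groups and replicate numbers read from the sample labels. As the study's methods state, Trimmomatic 0.33, HISAT2 (genome GRCm38) and StringTie were the authors' tools for trimming, alignment and quantification. For each state the deposited table holds raw counts of each gene, which are whole numbers. The step that gave whole counts, its use of read strand and its treatment of reads that fit several genes are not given in the sources used here. Both tables list a gene only if 5 or more of that state's 6 libraries have 4 counts or more. The deposited log2 values of the authors (12 columns) were left aside, as were their log2 fold changes, scores and p-values for each comparison.

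The analysis used R 4.3.3 with edgeR 4.0.16, its filterByExpr filter and TMM factors. Genotypes were compared within each state, and LPS responses and the interaction in a fit of all 12 libraries over genes of both tables, by two-sided quasi-likelihood tests with Benjamini-Hochberg adjustment over all genes tested. CPM are counts over TMM-scaled library sizes, with no count added. Intervals are 95% intervals of the fit. Totals of 56948593 to 167280149 counts make the spread between libraries the main limit on precision, except for Gbp5 and Gbp6. An exact permutation test of 3 against 3 libraries cannot go below p = 0.1, so none was run. The same code was checked on simulated counts in which chosen genes differed.

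Members and gene lists were chosen with earlier results of these data known. All 8 members are named, and of each list at most 4 genes with the smallest p in the comparison described. Alternatives were DESeq2 1.42.0, limma-voom (limma 3.58.1), other scaling and filters, an unadjusted threshold, a term for antisense counts, other sets of libraries in the fit, the replicate number as a block, and each library left out. The block together with the antisense term was added after seeing the data.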

Additional observations from a re-analysis of the deposited data

Results flagged for a closer look

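The LPS response of Gbp7 differed between the genotypes. Its log2 fold change after LPS was 1.21 larger in ACAT1-/- than in WT cells (standard error 0.193, adjusted p = 0.0383, edgeR), the single interaction past the threshold among the 8 members. Unstimulated levels were lower in 3 of 3 ACAT1-/- libraries than in any WT library, and levels after LPS overlapped. Exons of the pseudogene Gm43802 overlap those of Gbp7, and the part that shared reads play in this was not tested. Groups of 3 libraries were not tested for outlying libraries by the ratio of gap to range, and the values with each library left out are given with the results above.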

How the results depend on the processing

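All 8 members passed for LPS against unstimulated cells in both genotypes under each alternative in which all were tested, and Gbp5 and Gbp6 were not tested with at least 10 counts required in every library. In unstimulated cells 1 member was called in ACAT1-/- against WT, but 2 (Gbp7 and Gbp2) with DESeq2, limma-voom, all 12 libraries in a single fit, at least 10 counts in every library or the antisense term, and 4 at an unadjusted p under 0.05. After LPS 1 member was called, but 2 with DESeq2 (Gbp3 and Gbp5) and 3 at an unadjusted p. For the interaction 1 member was called, but 0 with limma-voom and 3 at an unadjusted p. Leaving out 1 library gave from 0 to 1 called member in each of these 3 comparisons. Over all genes in unstimulated cells 314 were called with all 6 libraries, 522 without WT replicate 3, 7 to 34 without any other library, and 1641 with DESeq2. For the interaction, 31 genes passed over all genes and 301 with DESeq2.

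Values that changed sign without 1 library were those of Gbp2 and Gbp9 after LPS, from -0.21 to 0.09 and from -0.10 to 0.23 on the log2 scale, and those of Gbp4 and Gbp5 for the interaction, from -0.12 to 0.44 and from -0.17 to 1.25. None of these passed the threshold with any library left out, and the cause was not tested.

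Same-numbered unstimulated and LPS libraries deviated together with r from 0.0913 to 0.307 over 16535 genes, and each library correlated best with its own number, which is a hint from the data and not from the labels. As 1 of the 6 values was under 0.1, the numbers were not taken to pair libraries. With the replicate block 0 members passed after LPS (Gbp3 adjusted p = 0.0589), and 2 passed for the interaction (Gbp7 and Gbp3), also 2 with the antisense term added. The block changed no other call of a member.

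Depth limits Gbp5 without stimulation, at 3 to 14 counts per library, and Gbp6, at 7 to 33.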
